A study of Mus musculus with 4 samples.

Results

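Plasmacytoid dendritic cells (pDC) were examined among CD45+ immune cells, which carry the leukocyte surface protein CD45, of mouse small-intestinal crypts, sorted and sequenced as 5′ single-cell RNA libraries (10x Genomics). A cell barcode was taken as a pDC where it held at least 2 molecules (UMIs, unique molecular identifiers) of Siglech, at least 1 of Bst2 and none of the T cell genes Cd3e, Cd3d and Cd3g or of the B cell gene Cd79a. The rule was applied to the 68087 of 68260 deposited barcodes that had at least 300 detected genes and at most 10% mitochondrial UMIs, and it chose 1234 of them, 1.81%. Of the 4 samples, 2 belonged to the control diet and 2 to a cystine-rich diet (cystine is a pair of cysteines joined by a disulfide bond), and 18000 cells were loaded for each. All 4 are labelled as small intestine of male mice, no allele or other agent is named, and strain, age and length of feeding are not given in the sources used here. Only the titles give the diet, as the treatment label is "Control" throughout. Nothing says whether a sample was 1 mouse or a pool, so the spread among the 4 samples behind each p-value may be technical. Values of 4 samples are given in the order control replicate 1, control replicate 2, cystine replicate 1, cystine replicate 2.

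Plasmacytoid dendritic cells are round, secretory immune cells that develop in the bone marrow and recognise viral and self nucleic acids with the endosomal receptors TLR7 and TLR9. Engagement of these receptors leads through the adaptor MyD88 and the transcription factor IRF7 to type I interferon in large amounts. Their identity depends on the E protein TCF4, which binds the DNA letters CANNTG (the E-box), and pDC reach the small intestine through the chemokine receptor CCR9.

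The chosen barcodes numbered 209, 192, 381 and 452. They were deeper than the rest. Their median was 2772, 3139, 2508 and 3170 UMIs, against 1400, 1752, 1354 and 1546 in T cells and 1097, 1260, 1128 and 1278 in B cells of the same samples. T cells were here barcodes with at least 2 Cd3 UMIs and none of Siglech or Cd79a, and B cells those with Cd79a and a second B cell gene but no Siglech or Cd3 UMI. Whole libraries held 27229695 to 31301936 UMIs, and 1 pDC barcode was also a pDC barcode in another library (both cystine replicates). Any 2 libraries shared 334 to 451 kept barcodes, 2.17% to 2.68% of the smaller.

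The condition on Cd3 and Cd79a decided many barcodes. Of the barcodes that met the Siglech and Bst2 minimums, 42.4%, 32.6%, 48.4% and 37.7% were left out for a Cd3 or Cd79a UMI. Among the 752 left out for Cd3 alone, Cox6a2 was detected in 95.7% and Ly6d in 97.3%, much as in the pDC, and 48.0% had the highest doublet scores of their library by Scrublet. Among pDC with 3 or more Siglech UMIs (1130 barcodes) that share was 4.96%. The median depth was 3610 UMIs in the barcodes left out for Cd3 alone and 2912 in those pDC. Just inside the Siglech minimum, at 2 UMIs (104 barcodes), Cox6a2 was detected in 86.5%, and just outside, at 1 UMI (64 barcodes), in 84.4%. The 22 barcodes with Siglech but no Bst2 had a median of 687 UMIs and Cox6a2 in 13.6%.

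The label was checked against the given markers, of which Siglech and Bst2 had chosen the cells. Cox6a2, the muscle form of a cytochrome oxidase subunit, was detected in 94.7%, 96.4%, 95.5% and 96.5% of pDC, against 0.31%, 0.19%, 0.65% and 0.56% of T cells. Pld4, an endolysosomal exonuclease that trims nucleic acids sensed by TLR9, was detected in 96.7%, 97.4%, 96.6% and 98.2% of pDC, against at most 0.82% of T cells and 14.4% of B cells. Klk1, tissue kallikrein, a secreted serine protease, was detected in 59.3% and 60.9% of control and 73.0% and 72.3% of cystine pDC, and in at most 0.38% of T cells and 0.20% of B cells. Siglech and Bst2 are present in every chosen barcode by the rule, so the check rests on the other 3 markers, of which Klk1 was found in a smaller part of the cells.

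The sequences before the transcription starts of Siglech, which chose the cells, of Klk1, the marker that varied most among them, and of its kallikrein neighbour Klk1b27 are shown to set the E-boxes in view. They are the 250 bases upstream of the RefSeq start on build GRCm38.p6, all on the + strand, at chr7:55767934-55768183 (Siglech), chr7:44225110-44225359 (Klk1) and chr7:44052040-44052289 (Klk1b27). They are written 5′ to 3′ with each E-box in capitals.
Siglech: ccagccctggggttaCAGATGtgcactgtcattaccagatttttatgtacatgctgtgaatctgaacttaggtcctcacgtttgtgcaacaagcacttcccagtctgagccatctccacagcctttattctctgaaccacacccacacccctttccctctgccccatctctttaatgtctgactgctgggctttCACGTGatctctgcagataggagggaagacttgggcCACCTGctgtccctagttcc
Klk1: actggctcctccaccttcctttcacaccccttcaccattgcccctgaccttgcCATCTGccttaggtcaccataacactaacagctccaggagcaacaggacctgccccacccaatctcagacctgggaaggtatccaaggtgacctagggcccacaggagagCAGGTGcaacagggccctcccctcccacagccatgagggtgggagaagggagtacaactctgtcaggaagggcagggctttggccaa
Klk1b27: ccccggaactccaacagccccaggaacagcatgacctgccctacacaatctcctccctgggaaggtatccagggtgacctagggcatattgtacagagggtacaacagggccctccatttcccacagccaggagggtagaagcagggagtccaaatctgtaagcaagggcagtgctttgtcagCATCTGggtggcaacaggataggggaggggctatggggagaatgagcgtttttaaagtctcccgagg
Siglech held 3 such matches, Klk1 held 2 and Klk1b27 held 1. The kallikrein pair had 47.6% identical bases over 317 aligned columns, and their transcripts are close paralogues, so UMIs may have been divided between them in either direction. The E-box pattern reads the same on both strands and is common, being present in 66.2% of 32851 promoter windows of this table. Of the 25 leading genes described further on, 16 had an entry, and 15 of these held an E-box. One form of it, CAGCTG, was found in 8 of the 16, against 13.0% of all windows. These are matches of letters, and binding was not measured.

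The first comparison asks whether the abundance of pDC differed between the diets. They made up 1.24% (95% exact interval 1.08% to 1.42%) and 1.25% (1.08% to 1.44%) of kept barcodes in the controls. The cystine samples stood at 1.97% (1.78% to 2.18%) and 2.73% (2.48% to 2.99%). The groups did not overlap. Means were 1.25% ± 0.00492 and 2.35% ± 0.532 (SD, n = 2 each), a difference of 1.10 percentage points and a ratio of 1.89. The two-sided exact permutation test gave p = 0.3333, the smallest p that 2 against 2 samples allow, so the difference cannot pass 0.05 in this design. The intervals cover counting error only.

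**Figure D1:**
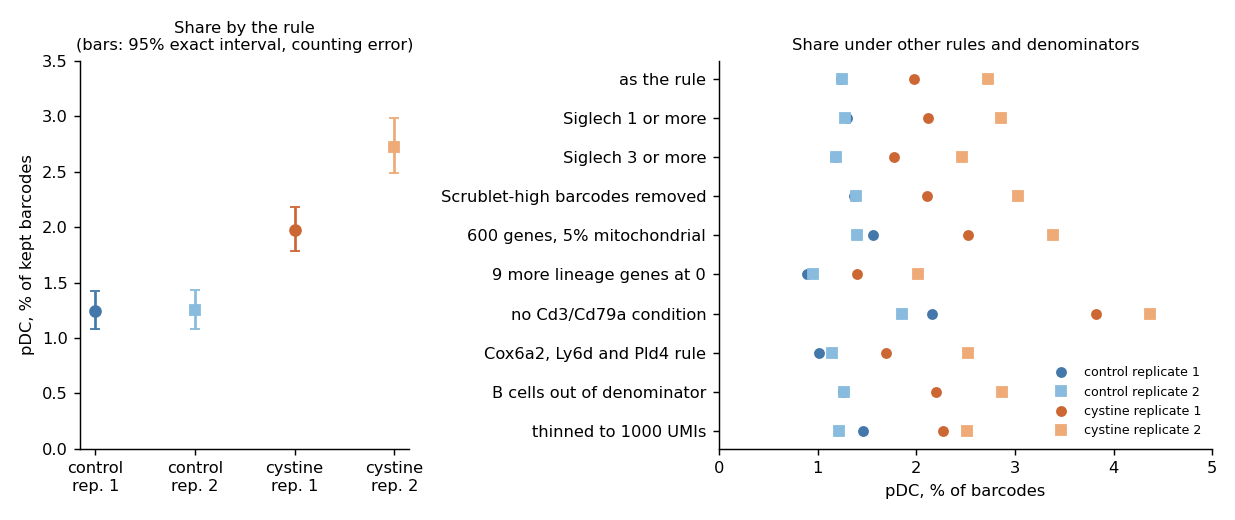
Share of pDC per sample: left, by the rule, as percent of kept barcodes with 95% exact intervals; right, under other rules and denominators, as percent of barcodes, 1 point per sample (blue control, orange cystine, circles replicate 1, squares replicate 2). The denominators of barcodes without Cd3 UMIs are not drawn. Both cystine samples lie to the right of both controls in each of the lines drawn, with 1.97% and 2.73% against 1.24% and 1.25% by the rule.

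The order of the diets held under other ways of choosing the cells. Without the Cd3 and Cd79a condition the shares were 2.16% and 1.85% in controls and 3.82% and 4.37% in cystine samples. Chosen by Cox6a2, Ly6d and Pld4 in place of Siglech, they were 1.01% and 1.15%, against 1.70% and 2.52%. With each barcode thinned to 1000 UMIs before the rule, which left out 1840 to 4906 shallower barcodes per sample, they were 1.46% and 1.22%, against 2.27% and 2.52%. The denominator mattered more. Among barcodes without Cd3 UMIs, pDC were 25.5% and 26.1% in controls and 13.1% and 25.8% in cystine samples, so that the mean was lower on the cystine diet by that measure. B cells, which fill that denominator, were 1.69% and 1.85% of kept barcodes in controls and 10.2% and 4.83% in cystine samples. Among barcodes with neither Cd3 nor Cd79a UMIs, pDC were 40.7% and 43.6%, against 48.1% and 50.3%. More pDC and fewer of the other sorted cells cannot be told apart from shares.

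Levels are next described as CPM, a gene's UMIs summed over the cells of a class and scaled so that every class has the same total. They are set beside those of T cells, B cells, 75 conventional dendritic cells and 166 monocytes and macrophages. Conventional dendritic cells held H2-Aa and at least 2 of Flt3, Itgax, Zbtb46, Xcr1, Clec9a, Cd209a, Ccr7 and Fscn1, with 10 to 31 in a sample. Monocytes and macrophages held 2 or more Lyz2 UMIs and a second gene such as Csf1r. Since expression chose the cells, these contrasts carry no test. Genes that chose a class are high in it partly by that choice.

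The transcription factors of the pDC programme were high. Tcf4, the master regulator of the lineage, had a median over samples of 562 CPM in pDC (551 to 629), against 68.6 in B cells, 48.3 in conventional dendritic cells and 27.5 in T cells. Irf8, needed for dendritic cell development, stood at 1934 CPM, against 214 in B cells and 172 in conventional dendritic cells. Bcl11a, a cofactor of TCF4, was at 307 CPM in pDC and 159 in B cells, and Runx2, which supports pDC exit from bone marrow, was at 283 CPM against 57.4 in T cells. Spib, an Ets factor shared by pDC and B cells, was at 166 CPM and 124 CPM in these classes. Factors of conventional dendritic cells were low. Batf3 was at 0 to 5.10 CPM in pDC and 158 in conventional dendritic cells. Id2, the antagonist of E proteins, was at 13.7 against 324. Zbtb46, which could also choose the conventional dendritic cells, was at 1.36 against 101.

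The nucleic acid sensing machinery was present. Tlr7, the single-stranded RNA receptor, had a median of 72.1 CPM in pDC, as in monocytes and macrophages (73.8), against 6.22 in B cells. Tlr9, the receptor for CpG DNA, was at 32.6 CPM, against 11.2 in B cells and 17.3 in monocytes and macrophages. Tlr12 was at 42.2 CPM, Tlr3 at 0.341, and Tlr8 had no UMI in any pDC. The chaperone Unc93b1, which carries these receptors to endosomes, stood at 975 CPM against 512 to 646 in B cells, conventional dendritic cells and monocytes. Slc15a4, a lysosomal transporter needed for TLR7 and TLR9 signalling in pDC, was at 80.0 CPM, and Irf7 at 493 CPM against 369 in monocytes and macrophages.

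Interferon transcripts themselves were nearly absent. Of the 20 type I and type III interferon genes in the files, 19 had no UMI in any of the 1234 pDC, and the remaining gene, Ifnz, had 2 UMIs, both in cystine replicate 2. A sum of 0 allows up to 5.10, 4.57 and 3.04 CPM in control replicates 1 and 2 and cystine replicate 1, or a UMI in up to 1.44%, 1.56% and 0.787% of pDC, by counting error only. Interferon-induced genes were detected at varied levels. Over 54 interferon response genes the pDC sums were 10546, 11030, 10139 and 10100 CPM. The medians were 5400 in T cells, 6288 in B cells, 6922 in conventional dendritic cells and 20970 in monocytes and macrophages. Ly6e, a gene of that list, stood at a median of 5301 CPM in pDC. Isg15 stood at 109 CPM in pDC, 156 in T cells and 409 in monocytes, and Ifi27l2a at 676 CPM in pDC, 405 in B cells and 2252 in monocytes. The inflammatory cytokine Tnf was at 30.1 CPM, Il6 at 0.341, and Il12b, Il10 and Ido1 had no UMI in pDC.

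Receptors and signalling adaptors were detected, some of them inhibitory. Over 22 genes of signalling adaptors and inhibitory receptors the pDC sums were 13399 to 14402 CPM. Medians were 13860 in monocytes and macrophages, 6483 in T cells, 5612 in conventional dendritic cells and 2628 in B cells. Tyrobp (DAP12), the signalling adaptor of SIGLECH, was at 8115 CPM in pDC, against 2694 in conventional dendritic cells and 2129 in T cells. Klra17 (Ly49Q), an inhibitory receptor of mouse pDC, was at 240 CPM against 19.96 in conventional dendritic cells. Lair1, an inhibitory collagen receptor, stood at 726 CPM, Cd300c at 414, and Blnk, an adaptor shared with B cells, at 335 against 324 in B cells. For homing, Ccr9 was at 923 CPM in pDC against 210 in T cells. Cxcr3 was at 133 CPM and Ccr2 at 68.0, whereas Ccr7, which guides dendritic cells to lymph nodes, was at 4.67.

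Antigen presentation lay below the conventional dendritic cells. Cd74, the class II invariant chain, was at 14101 CPM in pDC, 55562 in conventional dendritic cells and 42549 in B cells. H2-Aa, a class II chain required of every conventional dendritic cell by its rule, was at 3052 CPM, against 13939 and 7361. The costimulatory genes were near the detection limit, with Cd86 at 3.41 CPM, Cd40 at 5.11 and Cd80 at 0 in pDC, against 138, 62.7 and 24.4 in conventional dendritic cells. The growth factor receptor Flt3 was at 126 CPM, against 161 in conventional dendritic cells, and the survival gene Bcl2 at 20.8 against 515 in T cells.

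Genes of the endoplasmic reticulum and the lysosome were high in pDC. Summed over 33 genes of the secretory pathway and unfolded protein response, pDC had 12741, 13107, 12939 and 14472 CPM, against medians of 7140 in T cells and 6949 in B cells. Xbp1, which expands the endoplasmic reticulum, was at 562 CPM in pDC and 181 in B cells. Over 32 genes of mTORC1 and the lysosome the sums were 19913 to 21090 CPM, against 14194 in monocytes and macrophages and 2909 in T cells. The proteases Ctsb and Ctsl stood at 3897 and 2404 CPM in pDC, against 1398 and 152 in monocytes. Of genes that handle cystine, Slc7a11, the cystine importer, was at 0 to 1.01 CPM. Gclm, a subunit of the first enzyme of glutathione synthesis, was at 140 CPM, and Gpx1, which uses glutathione, at 3956 CPM.

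**Figure D2:**
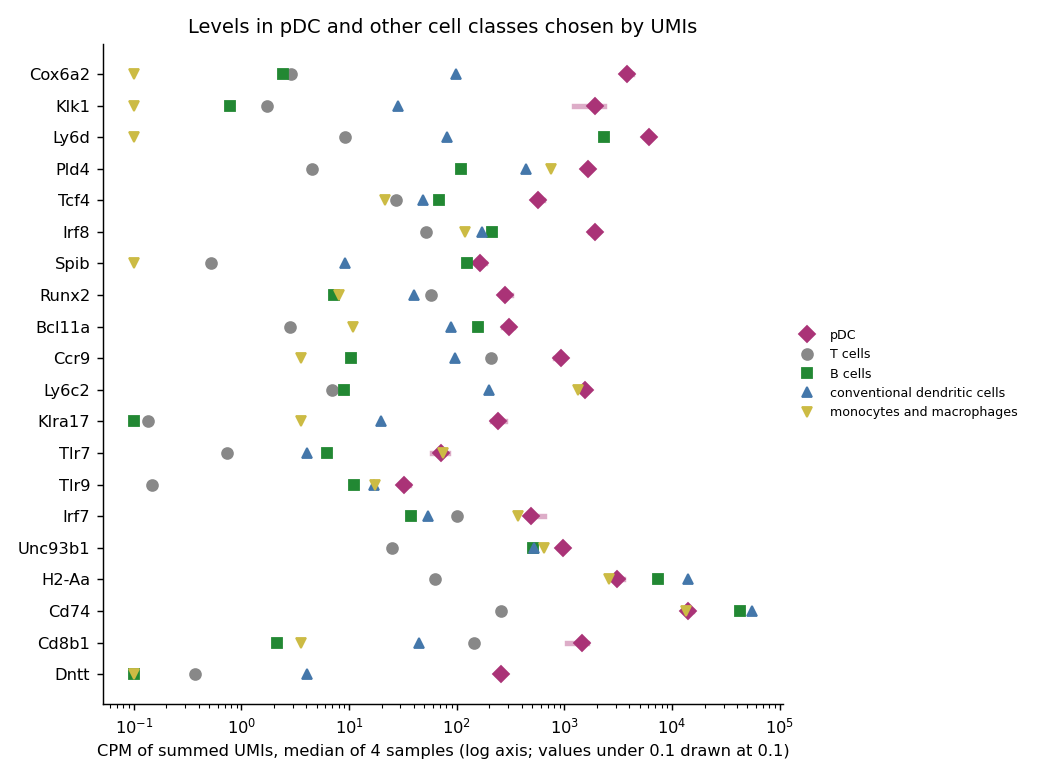
Median CPM over 4 samples (log axis; values under 0.1 drawn at 0.1) of 20 genes in pDC, T cells, B cells, conventional dendritic cells and monocytes and macrophages; pale bars give the range of the pDC over samples. Cox6a2, Klk1, Ly6d and Dntt lie farther right in pDC than in the other classes, while H2-Aa and Cd74 lie farther right in conventional dendritic cells (13939 and 55562 CPM) and B cells.

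Beyond the markers used, 2299 genes outside the rule reached 50 CPM in pDC of every sample. Of these, 106 were at least 10 times, 187 at least 5 times and 428 at least 2 times as high as in all other kept barcodes in every sample. The other barcodes include those left out for a Cd3 or Cd79a UMI, so these ratios are low estimates. The 25 with the largest lowest ratio were Pir, Smim5, Atp2a1, Gm21762, Dntt, Pgam2, Cd300c, Cox6a2, Klk1, Sh3bgr, Upb1, Foxr1, Ccnd1, Gm34680, Gm829, Ctsl, Gm13919, Lefty1, Clec10a, Gm14207, Eldr, Slamf9, Ddr1, Clec9a and Clec12a.

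Genes known best from striated muscle were among them: Atp2a1, the calcium pump SERCA1, had 259, 213, 248 and 261 CPM, with a median of 0.139 in T cells and 4.99 in conventional dendritic cells. Pgam2, the muscle form of phosphoglycerate mutase, had 66.4, 77.6, 101 and 96.9 CPM, and 0.0844 in T cells. Cox6a2 had 3524, 3835, 3740 and 4260 CPM. Ccnd1, cyclin D1, was at 1052, 1073, 999 and 1116 CPM in pDC and 301 in conventional dendritic cells, while 9 genes of dividing cells had 7 to 65 UMIs in all pDC of a sample. A pair of lectin receptors known from conventional dendritic cells belonged to the list: Clec9a, which detects dead cells, was at 177 CPM in pDC and 141 in conventional dendritic cells, and Clec10a stood between 307 and 403 CPM in pDC against 61.3. The level of Clec10a, like those of Atp2a1 and Ccnd1, varied little between samples.

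Lymphoid genes formed a second group. Dntt, terminal transferase, which adds bases during receptor rearrangement, was at 260, 265, 255 and 239 CPM and was detected in 46.9%, 52.6%, 44.4% and 48.2% of pDC, against at most 0.09% of T cells and no B cell. Iglc3, an immunoglobulin light chain constant gene, was detected in 80.9% to 87.4% of pDC, about as often as in B cells (75.04% to 83.5%) and in at most 2.44% of T cells. Igkc was detected in 13.9% to 17.2% of pDC and in 61.7% to 68.7% of B cells. Ighm was found in 69.5% to 80.2% of pDC, against 46.5% to 52.6% of the shallower B cells and 18.4% to 31.0% of T cells. By level the order was the reverse, with a median of 499 CPM in pDC and 812 in B cells, and B cells higher in all 4 samples. Light chain and heavy chain constant genes have close relatives, so their counts are uncertain. The B cell genes proper were scarce, with Ms4a1 in 1.50% of pDC with 3 or more Siglech UMIs.

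Both chains of the CD8 co-receptor were found in pDC although Cd3 was absent by the rule. Cd8a was detected in 59.8%, 59.4%, 60.1% and 58.9% of pDC, and in 81.8% to 87.8% of T cells and 1.76% to 7.70% of B cells. Cd8b1 was detected in 62.7%, 71.4%, 54.6% and 64.8% of pDC, against 4.76% to 13.2% of T cells and 0% to 0.608% of B cells. By level, Cd8b1 stood at a median of 1447 CPM in pDC and 143 in T cells, the reverse of Cd8a, at 756 CPM in pDC and 2135 in T cells. Both chains were detected in 38.3%, 43.8%, 32.5% and 42.3% of pDC. The T cell receptor constant gene Trac was detected in 2.87%, 0.52%, 2.89% and 1.33% of pDC, against 39.8% to 52.2% of T cells. Some abundant T cell transcripts were detected in pDC and B cells alike. Ccl5, a chemokine of gut T cells, was detected in 74.2%, 25.5%, 64.3% and 50% of pDC and in 66.0%, 20.8%, 66.8% and 54.1% of B cells of the same samples, with control replicate 2 lowest in both classes.

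Markers of other cell types were summed in pDC. The 16 monocyte and macrophage markers summed to 1031 to 1111 CPM in pDC, against 21655 in monocytes and macrophages, with Adgre1 at 0. The 18 markers of conventional dendritic cells summed to 2631 to 2979 CPM against 3925, with Xcr1 and Ccl22 at 0 and although Cd7, Clec9a, Clec10a and Flt3 of that list are also pDC genes here. The 10 markers of transitional dendritic cells, which resemble pDC, summed to 419 to 557 CPM in pDC. Their medians were 1737 in conventional dendritic cells, 17101 in monocytes and macrophages, 253 in B cells and 123 in T cells. Siglec1 was at 0, Axl at 0 to 1.52 CPM and Cx3cr1 at 3.04 to 8.19 in pDC. Nearly all of the pDC sum therefore came from other members of that list. Mast cell markers came from single barcodes: 653 of 653 Mcpt1 UMIs of control replicate 2 lay in 1 barcode, and 427 of 447 in cystine replicate 2.

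Variation among pDC was examined after thinning each cell to 1500 UMIs, which left 197, 188, 355 and 432 cells. Of 1718 genes with a mean of at least 0.1 UMI per cell in every sample, 38 had a Fano factor (variance over mean, 1 for pure counting) above 1.5 in every sample, while 1577 had a median under 1.2. At low means the factor stays near 1 whatever the variation, so it does not show that the others vary little. Ranked by the lowest of their 4 values, the genes above 1.5 began with Cd74 (Fano factor 9.12 to 13.2) and Gm42418 (8.15 to 56.2), then Cmss1, Cdk8, Klk1 (5.09 to 7.29), Ly6d (3.82 to 4.64), Ly6a (3.40 to 3.88), H2-Aa (3.39 to 4.15) and Cd8b1 (2.98 to 4.03). Isg15 had 2.39 to 4.62 and was detected in 6.60% to 10.9% of thinned cells.

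Some of these genes varied together across cells, described here as Pearson's r in each sample, over cells that share a library and 1 thinned depth. H2-Aa and Cd74 had r of 0.783 to 0.827. Klk1 went with the class II genes, at 0.324 to 0.415 with H2-Aa and 0.281 to 0.372 with Cd74, and H2-Aa with Iglc3 at 0.282 to 0.528. Isg15 went with Ifitm3, another interferon-induced gene, at 0.297 to 0.470. These last values rest on few cells. Before thinning, Ifitm3 was detected in 10, 10, 15 and 20 pDC, with up to 15, 19, 34 and 31 UMIs in 1 barcode. These values are descriptions, and cells of 1 sample are not replicates.

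**Figure D3:**
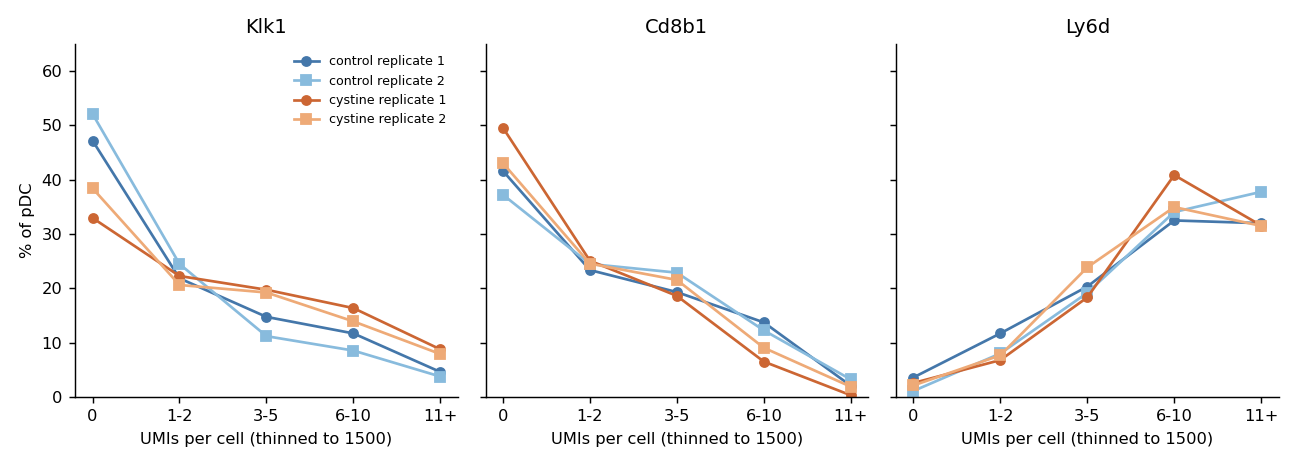
Percent of pDC (y) with 0, 1-2, 3-5, 6-10 or at least 11 UMIs (x) of Klk1, Cd8b1 and Ly6d after thinning to 1500 UMIs per cell, 1 line per sample. Klk1 was at 0 UMIs in 47.2% and 52.1% of control and 33.0% and 38.4% of cystine pDC, and at 11 or more in 4.57% and 3.72% against 8.73% and 7.87%; Ly6d was at 0 UMIs in 1.06% to 3.55%.

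The second comparison asks which genes differed between the diets within pDC. UMIs were summed per sample and tested over 6862 genes with edgeR's quasi-likelihood test and Benjamini-Hochberg adjustment. Past an adjusted p of 0.05, 2 genes were higher on the cystine diet (0.0291% of the genes tested) and 0 were lower (0%), while 312 had an unadjusted p under 0.05. DESeq2's Wald test also called 2 genes, with 40 at an unadjusted p under 0.05. Groups that did not overlap were common: both cystine samples lay above both controls in 16.9% of genes and below in 16.8%. CPM in this comparison are scaled by edgeR's TMM method, and each log2 fold change, positive where the cystine diet is higher, has its standard error (SE).

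The 2 genes called were defensins, the antimicrobial peptides of Paneth cells at the crypt base. Defa24 had 1.74, 1.57, 130 and 293 CPM, from 1, 1, 128 and 413 UMIs (log2 fold change 6.92, SE 0.65, adjusted p = 0.000431). Over the summed UMIs the ratio was 137 with a counting interval of 37.8 to 1137. AY761184, another defensin gene, had 0, 0, 35 and 116 UMIs (log2 fold change 8.79, SE 1.17, adjusted p = 0.0183), which is at least 25.5-fold higher against 3 UMIs over both controls. Without control replicate 2 both lost the call (adjusted p = 0.0747 and 0.365), and AY761184 also lost it with at least 600 genes per barcode and at most 5% mitochondrial UMIs (0.0647). Defensin genes have near-identical copies, so reads may be assigned to the wrong member.

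The same transcripts were found in other cells of the cystine samples. Defa24 was detected in 0.478%, 0.521%, 18.4% and 8.63% of pDC, in 0.13%, 0.20%, 22.3% and 7.88% of T cells, and in 0%, 0%, 21.6% and 9.0% of B cells. Its diet effect did not pass the test of a difference between pDC and T cells (difference -0.03 on the log2 scale, SE 1.21, adjusted p = 1). Of 33 epithelial marker genes in the files, 9 were tested and 2 were called, both of them the defensins above. Over all 6862 genes tested, 2 were called (0.0291%). The defensins and Lyz1 passed the filter on low counts only through the cystine samples, so the tested members are not read as a group. Epcam, an epithelial surface protein, had 29.5, 21.9, 47.7 and 34.1 CPM (log2 fold change 0.65, SE 0.31, adjusted p = 0.992). The whole list summed to 119 and 67.0 CPM in control pDC and 405 and 725 in cystine pDC, with Muc2, Krt18 and Olfm4 at 0. The part of such transcripts in the calls was not tested. Since both genes called are on this list, the test without immunoglobulin, T cell receptor and epithelial genes called 0, with 308 at an unadjusted p under 0.05.

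Among the 5 given markers Klk1 had the largest difference, and it did not pass. It had 1699, 1273, 2338 and 2233 CPM, so both cystine samples were higher. The means were 1486 ± 301 and 2286 ± 74.4 CPM (SD, n = 2 each), a log2 fold change of 0.62 (SE 0.11, edgeR adjusted p = 0.108). Klk1b27, its paralogue, had 141 and 102 CPM against 215 and 224 (log2 fold change 0.86, SE 0.18, adjusted p = 0.174). Klk1 passed under 5 of 18 alternatives. Among them were the fit without a low count filter, the omission of control replicate 1, the omission of cystine replicate 1, and the omission of barcodes with proliferation UMIs (adjusted p from 3.75e-09 to 0.0435). Over all alternatives its log2 fold change lay between 0.44 and 0.85 and its adjusted p reached 0.990. In T cells Klk1 had 15, 17, 57 and 86 UMIs and was called there (log2 fold change 2.29, edgeR adjusted p = 0.0339). The 2 effects differed by -1.60 (SE 0.34, edgeR interaction adjusted p = 0.00131). Its T cell level was near the floor, at a median of 1.72 CPM, with a UMI in 0.0932%, 0.105%, 0.385% and 0.290% of T cells. The part of barcodes that hold both a T cell and a pDC in this call was not tested. After thinning, Klk1 was detected in 52.8% and 47.9% of control and 67.0% and 61.6% of cystine pDC.

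**Figure D4:**
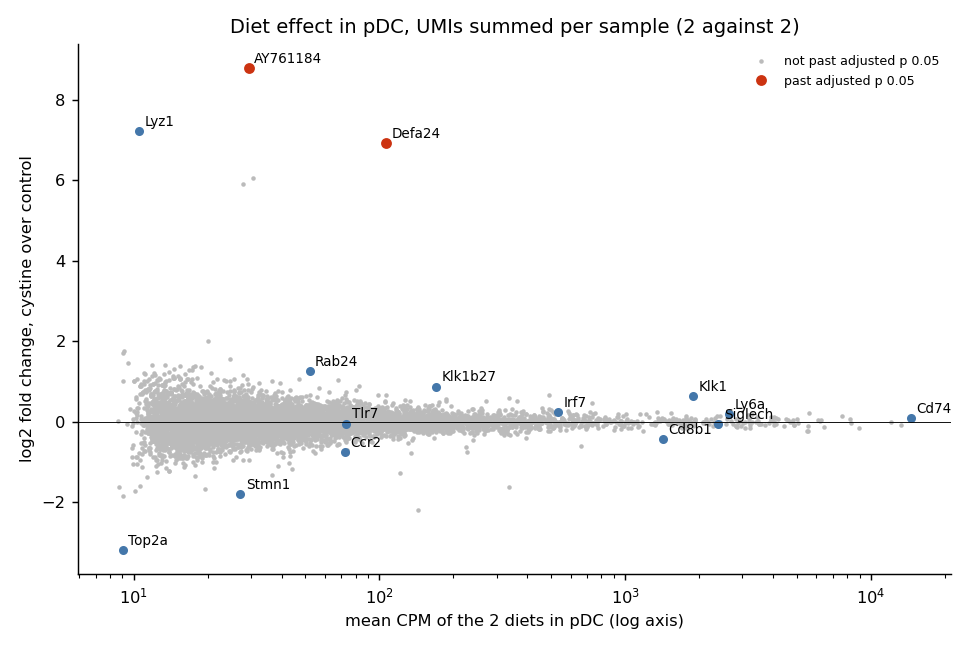
Log2 fold change, cystine over control (y), against the mean CPM of the 2 diets in pDC (x, log axis) for 6862 genes; red points passed an adjusted p of 0.05 and blue points are named genes that did not. The 2 red points are Defa24 and AY761184; Klk1 lies at 0.62 and Siglech at -0.07.

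The genes that define the lineage had small differences between the diets. Siglech had 2447, 2458, 2300 and 2360 CPM (log2 fold change -0.07, SE 0.08), although the rule set its minimum per cell. The other values were 0.12 for Cox6a2 (SE 0.09), 0.04 for Pld4 (SE 0.09), 0.07 for Tcf4 (SE 0.12), 0.06 for Irf8 (SE 0.09) and 0.04 for Ly6d (SE 0.06). Of the 15 transcription factors tested, 0 were called, with a median of -0.0045 and a range from -0.49 (Id2) to 0.22 (Irf7). Of 40 surface and other typical pDC genes, 0 were called, with a median of 0.0091 and a range from -0.75 to 0.28. The lowest was Cd209d, a C-type lectin with close paralogues, with 387, 183, 138 and 197 CPM, overlapping (SE 0.27, adjusted p = 0.992). The median over all 6862 genes tested was -0.0067, and 2 of them were called, so lists of this size are likely to hold none.

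Sensing, interferon response and antigen presentation gave no call. With 2 of all 6862 genes tested called, a list of this size is likely to hold none. Tlr7 had 64.3 and 86.1 CPM against 58.8 and 84.5, and Tlr9 had 36.5 and 31.3 against 30.4 and 36.2, with overlapping groups. Of 23 sensing genes tested, 0 were called and the median log2 fold change was -0.0058. Of 36 interferon response genes, 0 were called and the median was -0.0021. Their smallest p-values belonged to Ifi27l2a, at 627 and 611 against 939 and 767 CPM (log2 fold change 0.46, SE 0.12, adjusted p = 0.673), and Ly6e, a GPI-anchored antigen, at 5751 and 6121 against 4971 and 5089 CPM (-0.24, SE 0.06, adjusted p = 0.673). Isg15 had 116 and 102 against 103 and 180 CPM, overlapping. H2-Aa had 2779 and 3164 against 3520 and 3151 CPM, and the 15 class II and costimulation genes tested had a median of 0.076.

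Homing and metabolic lists were likewise without a call, where 2 of all 6862 genes tested were called. Of 17 homing and adhesion genes, Ccr2, a receptor for inflammatory recruitment, had the smallest p, with 99.0 and 84.5 CPM in controls and 50.7 and 56.1 in cystine samples (log2 fold change -0.77, SE 0.19, adjusted p = 0.610). Ccr9 had 835 and 958 against 915 and 1016 CPM. Of 29 genes of glutathione, cystine uptake and thioredoxin tested, 0 were called, 2 had both cystine samples above the controls and 5 below, and the median was -0.033, while the share apart over all genes was 16.9% above and 16.8% below. Gclm had 139 and 147 against 121 and 164 CPM (log2 fold change 0.01, SE 0.18), and Slc7a11 was too low to be tested. The 15 genes of the amino acid response driven by ATF4 had a median of -0.060, the 5 genes of coenzyme A synthesis 0.052 and the 32 secretory genes 0.043, with 0 called in each. Of 29 genes of mTORC1 and the lysosome, 0 were called, 11 had both cystine samples below both controls and 4 above, and the median was -0.050. Psap, the precursor of the saposins of lipid breakdown, had the smallest p of that list, with 6760, 6723, 6195 and 6068 CPM (log2 fold change -0.14, SE 0.06, adjusted p = 0.992).

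The 10 genes of smallest p, apart from those above, included Lyz1, Gm14851 and Defa30, Lyz1 and Defa30 being Paneth cell genes of the epithelial list, with 0, 0, 24 and 25 UMIs for Lyz1 (adjusted p = 0.0761). Rab24, a small GTPase linked to autophagy, had 33.0 and 28.2 CPM against 82.1 and 64.6 (log2 fold change 1.25, SE 0.25, adjusted p = 0.174). Stmn1 and Top2a, genes of dividing cells, had lower values and did not pass. Stmn1 had 31.3 and 53.2 CPM against 12.2 and 12.1 (-1.81, SE 0.35, adjusted p = 0.141), and Top2a had 8 and 12 UMIs against 2 and 2 (adjusted p = 0.174). Over the main and alternative settings, calls were made in 4 of 18 for Stmn1, 2 of 15 for Top2a, 3 of 19 for Rab24, 7 of 17 for Lyz1, and 9 of 19 and 9 of 18 for Gm14851 and Defa30. Without control replicate 1, Stmn1 and Rab24 passed (adjusted p = 1.67e-05 and 0.0193), as did Lyz1, Gm14851 and Defa30 (0.00110, 4.65e-12 and 2.76e-11), and without cystine replicate 1 the last pair passed again (2.44e-08 and 9.48e-09). Few barcodes carried the UMIs of dividing cells. Of the 23 UMIs of 9 proliferation genes in control replicate 1, 21 lay in 1 barcode, and 4, 1 and 0 barcodes with at least 2 such UMIs were found in control replicate 2 and cystine replicates 1 and 2. Of 19 proliferation genes in the files, 7 were tested and 0 were called, against 2 of all 6862 genes tested. Without barcodes with 2 or more such UMIs, 6 genes were called, all higher, against 2 with them, and both defensins were among them.

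The third comparison asks whether the diet effect in pDC differed from that in T cells of the same samples, with the sample as a block in edgeR's interaction test. It was called for 52 of 12929 genes (0.402%), 12 higher and 40 lower in pDC. The genes called lower mostly had a positive T cell estimate, although few were called in T cells: in 35 of the 40 the T cell log2 fold change was above 0, 4 of the 40 were called in T cells, in 30 the pDC value lay within 0.5 of 0, and 37 stayed under 50 CPM in cystine T cells. The median log2 fold change of the 40 was -0.06 in pDC and 1.96 in T cells.

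Cd8b1 had 1600 CPM in control and 1185 in cystine pDC, against 79.0 and 206 in T cells, where it was called (log2 fold change 1.32, adjusted p = 0.00377). The effects differed (difference -1.71, SE 0.17, adjusted p = 9.70e-21). In pDC alone it was at -0.43 (SE 0.11, adjusted p = 0.629), with 1619 and 1661 CPM in controls and 1062 and 1362 in cystine samples. Ly6a (Sca-1), an interferon-inducible surface antigen, was at 2417 and 2763 CPM in pDC and 18.1 and 70.2 in T cells (difference -1.64, SE 0.18, adjusted p = 8.23e-16). In T cells alone Ly6a rose by 1.89 on the log2 scale (adjusted p = 0.000366), and in pDC it was at 0.19 (SE 0.08, adjusted p = 0.992). Ly6d, a marker of lymphoid and pDC precursors, was at 5868 and 6057 CPM in pDC and 3.92 and 22.7 in T cells (difference -2.36, SE 0.24, adjusted p = 1.75e-18). In T cells alone Ly6d was not called (log2 fold change 2.51, edgeR adjusted p = 0.267), with 6.40, 1.40, 32.6 and 11.7 CPM in the 4 samples. These 3 differences stayed past the threshold in all 6 alternatives. Mef2c, Blnk and Iglc3, also high in pDC or B cells, differed by -2.18, -2.28 and -2.01, and lost the call without cystine replicate 1 (differences -0.91, -1.22 and -0.81, adjusted p = 0.827, 0.281 and 1). Siglech UMIs were found in 0.860% and 0.623% of barcodes with at least 2 Cd3 UMIs in controls and in 1.82% and 1.59% in cystine samples. Ly6d was also detected in 81.1%, 82.7%, 87.1% and 89.0% of B cells and Ly6a in 30.9%, 50%, 51.6% and 53.5%, but Cd8b1 in at most 0.608%. B cells were 1.69% and 1.85% of kept barcodes in controls and 10.2% and 4.83% in cystine samples. None of the 6 alternatives changed the choice of cells. The part of shared barcodes and of B cell RNA in these differences was not tested.

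**Figure D5:**
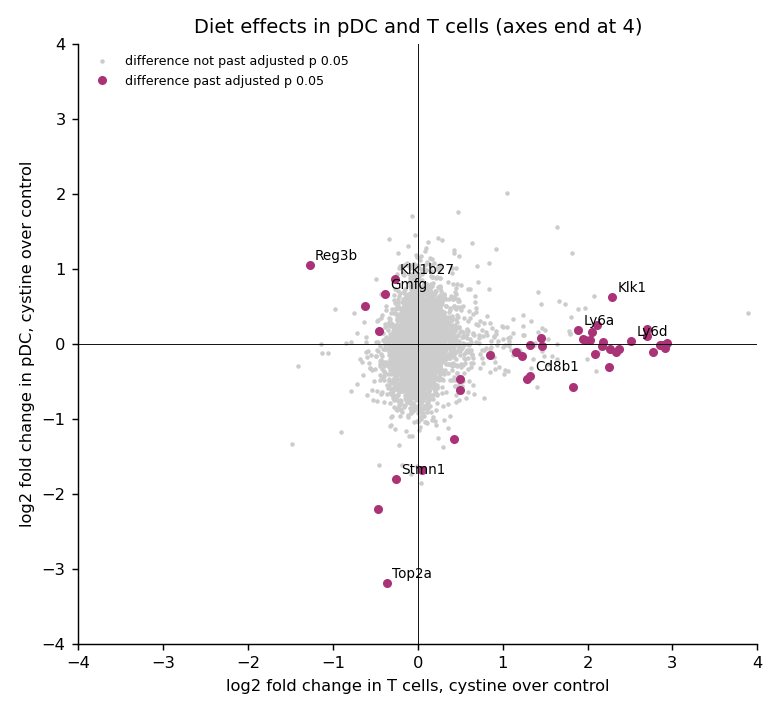
Log2 fold change by diet in pDC (y) against that in T cells (x) for genes tested in both; purple points passed the test of the difference (edgeR interaction, adjusted p of 0.05), and the axes end at 4 in each direction. Of the 43 genes called, 31 lie within 0.5 of 0 in pDC, as do Ly6d and Ly6a; Stmn1 and Top2a lie below 0 in pDC.

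Among the genes called higher in pDC than in T cells were Fabp6, Reg3b, Reg3g and Apoa1, genes of the gut epithelium with few UMIs in pDC. Fabp6 had 1, 0, 0 and 19 UMIs in pDC, and in T cells 95.6 CPM in control replicate 1 against 0.144 to 1.16 in the other samples. It lost the call without control replicate 1 (adjusted p = 0.941) and without cystine replicate 2 (adjusted p = 1), and Reg3b, Reg3g and Apoa1 lost it without cystine replicate 2 (adjusted p = 1, 0.559 and 0.564), Apoa1 also without control replicate 2 (0.0948). Klk1b27 was at 118 and 215 CPM in pDC and 12.4 and 10.8 in T cells (difference 1.203, SE 0.22, adjusted p = 2.14e-05). That call was lost without control replicate 2 (0.84, adjusted p = 0.331) and without cystine replicate 2 (0.997, adjusted p = 0.111). Gmfg, a regulator of actin branching, differed by 1.12 (SE 0.24, adjusted p = 0.00124), and lost the call without control replicate 2 or cystine replicate 1 (adjusted p = 0.195 and 0.250).

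Against B cells, the diet effect differed for 7 of 7925 genes (0.0883%), 4 higher and 3 lower in pDC. Slpi, an antiprotease, had 218, 158, 163 and 601 UMIs in pDC and 194, 3, 23 and 14 in B cells, and the sign turned without control replicate 1 (4.20 with it, -0.30 without it). Ebf1, a B cell factor, had 0 UMIs in control pDC and 23 and 7 in cystine pDC (adjusted p = 0.00640). That is at least 5.08-fold higher against 3 UMIs over both controls. It lost the call without either control or cystine replicate 1 (adjusted p = 0.0552, 0.316 and 0.633). B cells themselves were more frequent in the cystine samples, and the part of B cell RNA in the Ebf1 call was not tested. Pclaf and Rrm2, genes of dividing cells, had 7, 23, 0 and 1 and 4, 10, 1 and 0 UMIs in pDC, and both lost the call without control replicate 2 (adjusted p = 0.218 and 0.905), Rrm2 also without cystine replicate 2 (0.403). Zg16, a goblet cell lectin, was called at 4.45 and lost the call without cystine replicate 2 (adjusted p = 1). H2-Q6, a class I molecule, was called at 1.07 (adjusted p = 0.0357) and lost the call without either control or cystine replicate 1 (adjusted p = 0.0552, 0.905 and 0.898), and also with no low count filter (0.95, adjusted p = 0.237). AC133103.1 had 2, 107, 4 and 9 UMIs in pDC, and its difference of -2.63 turned to 0.83 without control replicate 2, and lost the call without cystine replicate 1 (adjusted p = 0.784).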

How the data were processed

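The measurements were 5′ single-cell RNA counts of 4 libraries. The deposited matrices hold raw UMI counts per gene and barcode over 32285 genes, for barcodes of at least 500 UMIs. Cell Ranger 3.1.0, Seurat 4.0.1 and build GRCm39 stand in the submitters' processing notes, whereas the file headers name Cell Ranger 7.0.1, so the version that made the counts is uncertain. Barcodes were chosen by UMIs in Python 3.11.15, and doublets were kept, except in an alternative that removed the highest Scrublet scores (scanpy 1.11.5) at 0.8% per 1000 barcodes. UMIs of the chosen barcodes were summed per sample and tested in R 4.3.3 with edgeR 4.0.16 (filterByExpr, TMM, glmQLFit, glmQLFTest; adjusted p threshold 0.05), and with DESeq2 1.42.0 as an alternative. The scripts were tested on simulated counts. Intervals of shares are exact (Clopper-Pearson, 95%), and 3 counts is the limit that a sum of 0 allows. The cell rule, the 28 gene lists and the naming rule were chosen with earlier results of these data known. The genes named for diet were those past the threshold whose groups lay apart, with at least 20 CPM. As fewer than 5 passed, the 10 genes of smallest p were added. To these came 27 genes given always, the 25 leading genes and up to 6 interaction genes per direction. Other genes of a list were named by their smallest p, after their values were seen. Promoters are from RefSeq on GRCm38.p6, and coordinates of the files' own build were not used here.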

Additional observations from a re-analysis of the deposited data

Results flagged for a closer look

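For 19 genes the diet effect differed between pDC and another class of the same samples by edgeR's interaction test, given as the difference of log2 fold changes, pDC minus the other class. Against T cells the differences were 9.21 for Fabp6, 2.38 for Reg3b, 3.11 for Reg3g, 1.203 for Klk1b27, 2.996 for Apoa1 and 1.12 for Gmfg. They were -1.71 for Cd8b1, -2.36 for Ly6d, -2.18 for Mef2c, -1.64 for Ly6a, -2.28 for Blnk and -2.01 for Iglc3. Against B cells the differences were 4.20 for Slpi, 4.45 for Zg16, 6.83 for Ebf1 and 1.07 for H2-Q6 (the Ebf1 value is no bound, as control pDC had 0 UMIs), and -5.47 for Pclaf, -2.63 for AC133103.1 and -4.69 for Rrm2. Groups of 2 samples allow no test for a sample that stands apart.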

How the results depend on the processing

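With 2 samples per diet the exact test cannot pass, and depth limits genes under about 10 CPM in the summed pDC. The difference in pDC share was 1.10 percentage points. It lay between 0.728 and 1.48 with 1 sample left out, was 0.732 for replicate 1 and 1.48 for replicate 2 with the replicate block, and turned to -6.31 with barcodes without Cd3 UMIs as the denominator. The number of genes changed by diet in pDC was 2. It was 5 with a Siglech minimum of 1, 1 with minimums of 600 genes and a 5% limit on mitochondrial UMIs, 6 with 9 more lineage genes at 0, 39 with no low count filter and 33 with the replicate block, where Klk1, Klk1b27, Stmn1, Top2a, Rab24, Lyz1, Gm14851 and Defa30 also passed. Alternatives chosen after seeing the data gave 27 without the Cd3 and Cd79a condition, 6 without barcodes with proliferation UMIs, 7 with Cox6a2, Ly6d and Pld4 in place of Siglech, and 0 without immunoglobulin, T cell receptor and epithelial genes. With 1 sample left out, the lone sample being assumed to vary like the other group, it lay between 0 (without control replicate 2) and 41 (without control replicate 1). Interaction calls then lay between 13 and 70 against T cells (52 with all samples) and between 7 and 14 against B cells (7 with all). The Slpi difference against B cells lay between -0.30 (reversed, without control replicate 1) and 5.10 with 1 sample left out, and that of AC133103.1 between -3.39 and 0.83 (reversed, without control replicate 2); the causes were not tested. The labels do not say that replicate numbers pair samples, and with 2 pairs the deviations of the replicates numbered 1 correlated at 0.261 over 2743 genes. Of the values of single named genes, 632 kept direction and call, 42 gained a call, 28 lost one, 33 uncalled values changed sign and 2 reversed.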
